A study of Mus musculus with 12 samples.

Results

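The genes described here are 10 components and outputs of the circadian clock, Arntl, Npas2, Per1, Per2, Per3, Nr1d1, Nr1d2, Dbp, Tef and Bhlhe40, chosen by name out of 52858 genes measured in mouse hearts. RNA was sequenced from 12 hearts of male mice aged 3 to 5 months that were kept under 12 h of light per day. The hearts were excised and perfused outside the body on a Langendorff apparatus, in which buffer is driven through the coronary vessels from the aorta. There were 4 groups with 3 libraries each. C57-non-IR and C57-IR hearts came from C57BL/6J mice, the background strain. Slit2-non-IR and Slit2-IR hearts came from Slit2-Tg mice, which are heterozygous for a full-length human Slit2 cDNA under the CMV promoter. That transgene had been injected into C57 × CBA F1 oocytes. In the IR protocol, flow was stopped for 20 min after stable perfusion and then restored for 40 min. Non-IR hearts were perfused for 80 min throughout. The labels give the genotype of each library, and its IR status was taken from the letters in its title, matched to the groups of the study's methods. They give no hour of heart collection.

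The clock of each cell is a loop of transcription factors. Arntl (also called Bmal1) pairs with Clock or with its relative Npas2 and activates genes through E-box sequences, among them the Per and Cry repressors, the nuclear receptors Nr1d1 and Nr1d2 (REV-ERB alpha and beta) and the output factor Dbp. Per and Cry proteins close the main loop by inhibiting the activator pair, and Nr1d1 and Nr1d2 repress Arntl and Npas2 through ROR elements, so that in the mouse heart Arntl RNA and Dbp RNA peak at opposite times of day. Dbp, Tef and Hlf activate and Nfil3 represses genes through D-box sequences, and Bhlhe40 is an E-box repressor that is also induced by low oxygen. Per1 and Bhlhe40 can further be induced within an hour by signals outside the clock.

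These binding sequences were searched on both strands in RefSeq promoter windows of the GRCm38.p6 assembly, each reaching from 250 bases before to 50 bases after a start site. Windows were found for 8 of the 10 genes, with 11 windows in all. The E-box CACGTG, which reads the same on both strands, lay in 3 of the 11 windows, against 7.15% of all 32851 mouse windows. These were 1 window of Per1 and the 2 windows of Tef. The E-prime box CACGTT lay only in that of Nr1d1 (4.68% of all windows), the D-box TTATGTAA only in that of Per3, where it occurred at 2 places (0.938%), and the ROR element core AGGTCA in windows of Arntl, Nr1d2 and Per1 (16.3%). No window of the 8 genes held the D-box TTACGTAA (0.119%) or the cAMP response element TGACGTCA (1.79%). The following stretches of 30 bases are shown because they carry the letters by which the loop's factors are known to bind, with the motif in capitals and each stretch read 5′ to 3′ on the gene's own strand. A match describes the letters only. The E-box in the other window of Tef and the ROR element core of Per1 are not shown.
Per1 E-box, chr11:69098771-69098800, plus strand, in an intron: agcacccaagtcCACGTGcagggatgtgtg
Tef E-box, chr15:81811264-81811293, plus strand, in an intron: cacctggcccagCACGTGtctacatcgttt
Nr1d1 E-prime box, read in reverse, chr11:98775388-98775417, minus strand, before the gene: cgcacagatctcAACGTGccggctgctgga
Per3 first D-box, chr4:151044852-151044881, minus strand, before the gene: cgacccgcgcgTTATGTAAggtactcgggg
Per3 second D-box, chr4:151044805-151044834, minus strand, before the gene: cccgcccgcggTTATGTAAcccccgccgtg
Arntl ROR element core, chr7:113207530-113207559, plus strand, in the 5′ UTR: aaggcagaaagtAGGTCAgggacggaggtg
Nr1d2 ROR element core, chr14:18239166-18239195, minus strand, before the gene: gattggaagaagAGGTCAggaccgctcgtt

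Each library held between 16601154 and 24841291 reads on genes. Mitochondrial genes took 23.87% to 25.98% of them in the C57 libraries and 19.73% to 23.78% in the Slit2 libraries. The part of this difference in the comparisons of genotypes was not tested. The IR reading of the labels was checked with the heat shock gene Hspa1a, whose level was 293 to 744 FPKM (fragments per kilobase of gene length, scaled between libraries) in the 6 IR libraries and 3.90 to 10.4 FPKM in the 6 non-IR libraries. Mouse Slit2 lay between 0.0847 and 0.282 FPKM in 11 libraries and at 0.813 FPKM (498 reads) in Slit2-IR replicate 2, which stands apart from the other two Slit2-IR libraries. Its averaged difference between genotypes was not called (log2 fold change 0.03 ± 0.10 SE, limma's test, adjusted p = 0.999, and -0.087 without that library, adjusted p = 0.829), and since the transgene is a human cDNA this does not check the genotype. Ventricular cardiomyocyte markers summed to 16870 to 24310 FPKM over 10 genes. All 10 clock genes passed the filter on low reads and were among the 15240 genes tested.

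Measured per gene length, the mean level over the 12 libraries fell from Bhlhe40 (27.6 FPKM) through Tef (23.7 FPKM), Nr1d2 (19.3 FPKM), Nr1d1 (18.1 FPKM), Dbp (18.0 FPKM), Per1 (14.1 FPKM), Per2 (6.37 FPKM) and Per3 (2.83 FPKM) to Arntl (0.644 FPKM) and Npas2 (0.249 FPKM). The ranges over libraries of every pair of neighbours in this order overlapped, so the order is that of the means only. Arntl and Npas2 rested on few reads, 22 to 359 and 11 to 90 per library. The highest library exceeded the lowest 12.8-fold for Arntl and 12.2-fold for Nr1d1, but 2.34-fold for Nr1d2 and 2.79-fold for Tef.

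**Figure D1:**
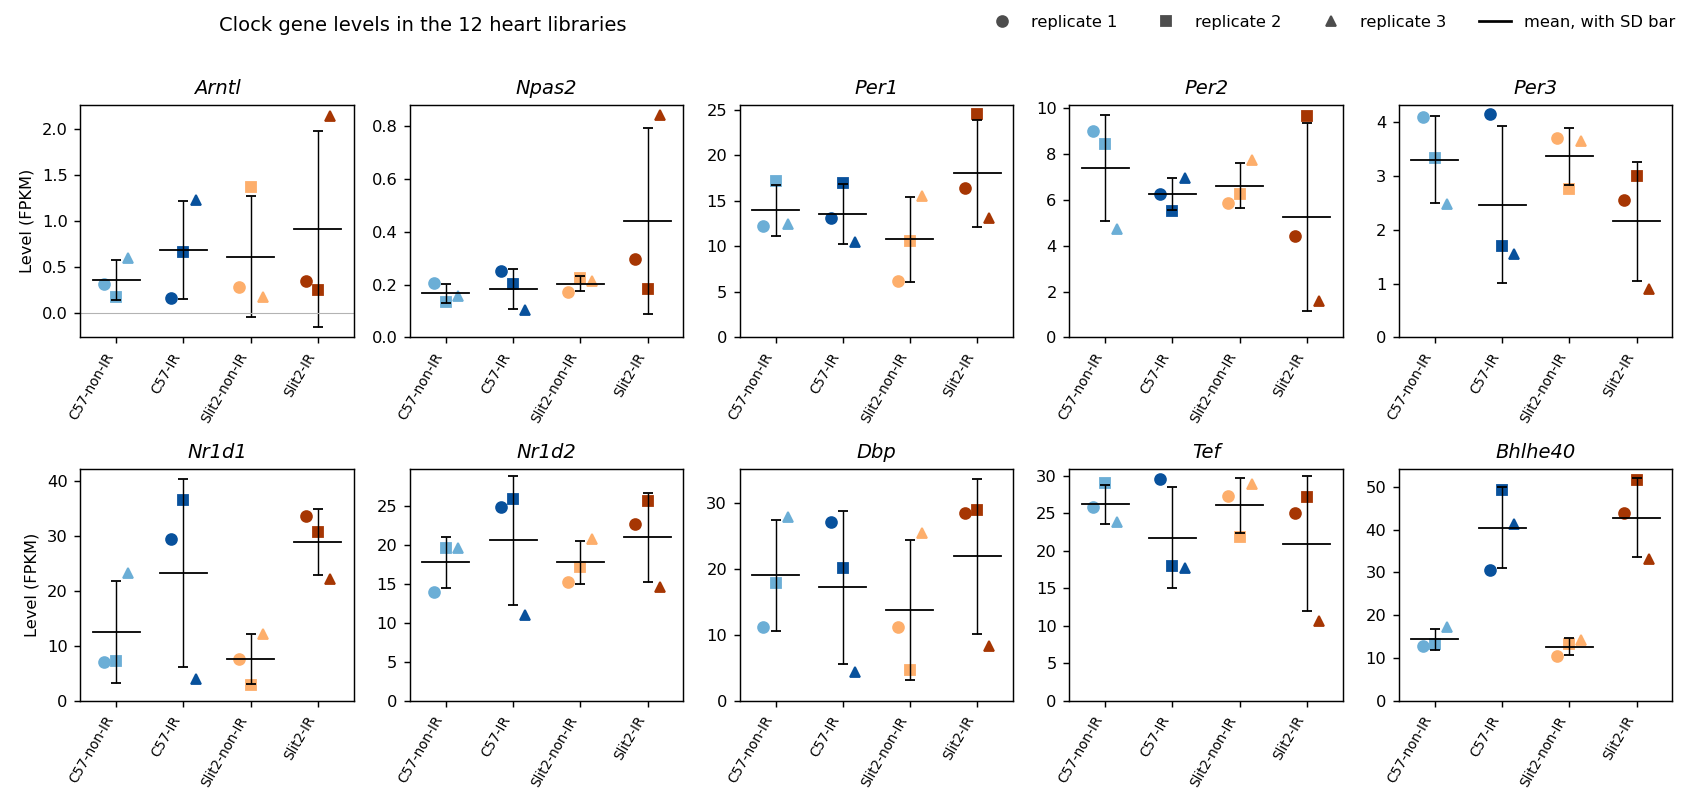
Level of each clock gene in FPKM (vertical axes, each from 0 or just below it) in the 4 groups (horizontal axis). Points are single libraries with a marker for the replicate number, lines are group means and bars are SDs (n = 3). Bhlhe40 is the gene whose 6 IR libraries (30.5 to 51.6 FPKM) all lie above its 6 non-IR libraries (10.4 to 17.3 FPKM), while the points of Arntl, Dbp and Nr1d1 are spread widely within groups.

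Whether IR changed the clock genes was asked in each genotype. Bhlhe40, the E-box repressor, rose with IR in both. Its level was 12.8, 13.2 and 17.3 FPKM in C57-non-IR hearts (14.4 ± 2.48 FPKM, mean ± SD, n = 3) and 30.5, 49.3 and 41.4 FPKM in C57-IR hearts (40.4 ± 9.46 FPKM, n = 3). In Slit2-non-IR hearts it was 10.4, 13.2 and 14.3 FPKM (12.7 ± 2.01 FPKM, n = 3), and in Slit2-IR hearts 43.8, 51.6 and 33.1 FPKM (42.8 ± 9.28 FPKM, n = 3). Neither pair of groups overlapped. On the log2(FPKM + 1) scale the difference was 1.41 ± 0.21 SE in C57 hearts (limma, adjusted p = 0.0230) and 1.67 ± 0.21 SE in Slit2 hearts (adjusted p = 0.00911). Averaged over both genotypes it was 1.54 ± 0.14 SE (adjusted p = 0.000536, 0.00019 to 0.00773 over the alternatives). The gene lies on chromosome 6, 108660629 to 108666925, plus strand (ENSMUSG00000030103). The averaged IR effect was called under every alternative, but the call within C57 hearts was lost with no filter beyond 1 read (adjusted p = 0.0749), in a fit of only the 6 libraries compared (0.0987), without C57-non-IR replicate 1 (adjusted p = 0.111), 2 (0.136) or 3 (0.0572) and without C57-IR replicate 2 (0.0842) or 3 (0.0842). That within Slit2 hearts was lost without Slit2-non-IR replicate 1 (0.0548), Slit2-IR replicate 1 (0.0643) or Slit2-IR replicate 2 (0.0507), with log2 differences between 1.26 and 1.64 in all these fits.

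Bhlhe40 was the 1 clock gene of 10 called at an adjusted p under 0.05 in each IR comparison, against 0.459% of all genes tested in C57 hearts, 0.525% in Slit2 hearts and 3.49% for the averaged IR effect. With an unadjusted p under 0.05 there was 1 clock gene in C57 hearts (8.96% of all genes), 3 in Slit2 hearts (11.2%) and 2 for the averaged effect (15.9%), each higher with IR. When replicate numbers entered the fit as a block, the last count was 3, the added gene being Per3, which was lower with IR (unadjusted p = 0.0267, adjusted p = 0.193). In that fit 1440 of the 15240 genes tested were higher and 1375 lower at an unadjusted p under 0.05. The groups did not overlap for 1 clock gene in C57 hearts (13.8% of all genes) and for 2 in Slit2 hearts (16.9%). The median log2 difference of the 10 genes was -0.01 in C57 hearts and 0.22 in Slit2 hearts, against 0.00 and 0.01 over all genes.

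Nr1d1, the heme-binding repressor of Arntl, was the other gene whose Slit2 groups did not overlap. In Slit2-non-IR hearts it stood at 7.71, 2.99 and 12.1 FPKM and in Slit2-IR hearts at 33.8, 30.8 and 22.2 FPKM, a log2 difference of 1.94 ± 0.71 SE (limma, unadjusted p = 0.0199, adjusted p = 0.307). In C57 hearts the groups overlapped widely, with 7.17, 7.35 and 23.4 FPKM without IR and 29.4, 36.5 and 4.06 FPKM with IR, a log2 difference of 0.60 ± 0.71 SE (adjusted p = 0.944). This value depended on single libraries, since it ranged from 0.067 to 1.51 with 1 of them left out. The value of 1.51 came without the lowest C57-IR library, replicate 3. Without that library the averaged IR effect went from 1.27 ± 0.50 SE (limma, adjusted p = 0.235) to 1.73 (adjusted p = 0.0320). No other single library left out gave a call of the averaged effect, and its adjusted p then reached 0.466. The difference between the genotypes in their IR response was 1.34 ± 1.01 SE (adjusted p = 0.9998), so the larger value in Slit2 hearts was not distinguished from that in C57 hearts. Nr1d1 (ENSMUSG00000020889, chromosome 11, 98767932 to 98775333, minus strand) shares 1075 bases with Thra on the opposite strand, at 12.1 to 19.4 FPKM over the libraries, and whether counting used strand is not given in the sources used here.

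Its paralog Nr1d2 (ENSMUSG00000021775, chromosome 14, 18204054 to 18239127, minus strand) moved over a narrower range. It was 17.7 ± 3.26 FPKM in C57-non-IR and 20.6 ± 8.26 FPKM in C57-IR hearts (mean ± SD, n = 3 each). It was 17.7 ± 2.78 FPKM in Slit2-non-IR and 21.0 ± 5.71 FPKM in Slit2-IR hearts. The averaged IR effect was 0.17 ± 0.21 SE on the log2 scale (adjusted p = 0.798).

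Among the period genes, which encode the repressors that shut off the activator pair, Per1 had an unadjusted p under 0.05 in Slit2 hearts. Per1 (ENSMUSG00000020893, chromosome 11, 69095217 to 69109960, plus strand) stood at 6.23, 10.6 and 15.5 FPKM in Slit2-non-IR and at 16.4, 24.6 and 13.1 FPKM in Slit2-IR hearts. The ranges overlapped, and the log2 difference of 0.73 ± 0.30 SE did not pass the adjusted threshold (unadjusted p = 0.0344, adjusted p = 0.383). In C57 hearts Per1 was 12.2, 17.2 and 12.5 FPKM without and 13.2, 17.0 and 10.53 FPKM with IR, a log2 difference of -0.05 ± 0.30 SE whose sign turned when C57-non-IR replicate 2 (0.10) or, in the IR group, replicate 3 (0.11) was left out. The interaction for Per1 was 0.77 ± 0.43 SE (adjusted p = 0.9998).

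Per2 (ENSMUSG00000055866, chromosome 1, 91415982 to 91459324, minus strand) stood at 8.98, 8.43 and 4.72 FPKM in C57-non-IR and at 6.27, 5.53 and 6.94 FPKM in C57-IR hearts. It was 5.88, 6.26 and 7.74 FPKM in Slit2-non-IR and 4.42, 9.68 and 1.60 FPKM in Slit2-IR hearts. Its highest and its lowest library were both Slit2-IR hearts, 6.04-fold apart. Per3 (ENSMUSG00000028957, chromosome 4, 151003652 to 151044665, minus strand) was 4.09, 3.33 and 2.48 FPKM in C57-non-IR and 4.16, 1.69 and 1.56 FPKM in C57-IR hearts. In Slit2 hearts it was 3.71, 2.76 and 3.65 FPKM without IR and 2.56, 3.01 and 0.906 FPKM with IR. The averaged IR effects were -0.34 ± 0.28 SE for Per2 (adjusted p = 0.650) and -0.45 ± 0.22 SE for Per3 (adjusted p = 0.358), with overlapping groups in both genotypes. Per3 lies whole within the bounds of Camta1 on the same strand, a gene at 6.21 to 10.7 FPKM, and how reads were divided between them is not given in the sources used here.

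The output factors Dbp and Tef, both activators of D-box genes, differed in their spread. Dbp (ENSMUSG00000059824, chromosome 7, 45705088 to 45710203, plus strand) stood at 11.3, 17.9 and 27.9 FPKM in C57-non-IR and at 27.0, 20.2 and 4.46 FPKM in C57-IR hearts. In Slit2 hearts it stood at 11.3, 4.75 and 25.4 FPKM without IR and at 28.4, 28.8 and 8.34 FPKM with IR. Each group held at least a 2.47-fold difference between its lowest and highest library, and the groups overlapped throughout. The averaged IR effect was 0.18 ± 0.50 SE (adjusted p = 0.920), with a 95% interval from -0.91 to 1.28, wide enough to hold a change of more than 1 log2 unit upwards. Dbp shares 737 bases with Sphk2 on the opposite strand (3.92 to 6.86 FPKM). Tef (ENSMUSG00000022389, chromosome 15, 81802421 to 81826861, plus strand) was 26.2 ± 2.59 FPKM in C57-non-IR and 21.8 ± 6.76 FPKM in C57-IR hearts. It was 26.0 ± 3.68 FPKM in Slit2-non-IR and 20.9 ± 9.004 FPKM in Slit2-IR hearts (mean ± SD, n = 3 each). The averaged IR effect was -0.34 ± 0.21 SE (adjusted p = 0.493).

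The activators were the lowest of the 10 genes. Arntl (ENSMUSG00000055116, chromosome 7, 113207465 to 113314126, plus strand) stood at 0.320, 0.172 and 0.599 FPKM in C57-non-IR and at 0.168, 0.667 and 1.22 FPKM in C57-IR hearts. In Slit2 hearts it stood at 0.288, 1.37 and 0.178 FPKM without IR and at 0.354, 0.248 and 2.14 FPKM with IR. In both Slit2 groups 1 library stood well above the other two, and the groups overlapped. Npas2 (ENSMUSG00000026077, chromosome 1, 39193731 to 39363236, plus strand) lay between 0.102 and 0.298 FPKM in 11 libraries and at 0.843 FPKM in Slit2-IR replicate 3, the library with the most Arntl. The averaged IR effects were 0.23 ± 0.26 SE for Arntl (adjusted p = 0.764) and 0.13 ± 0.09 SE for Npas2 (adjusted p = 0.579), on a scale that understates changes of genes at such low levels.

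**Figure D2:**
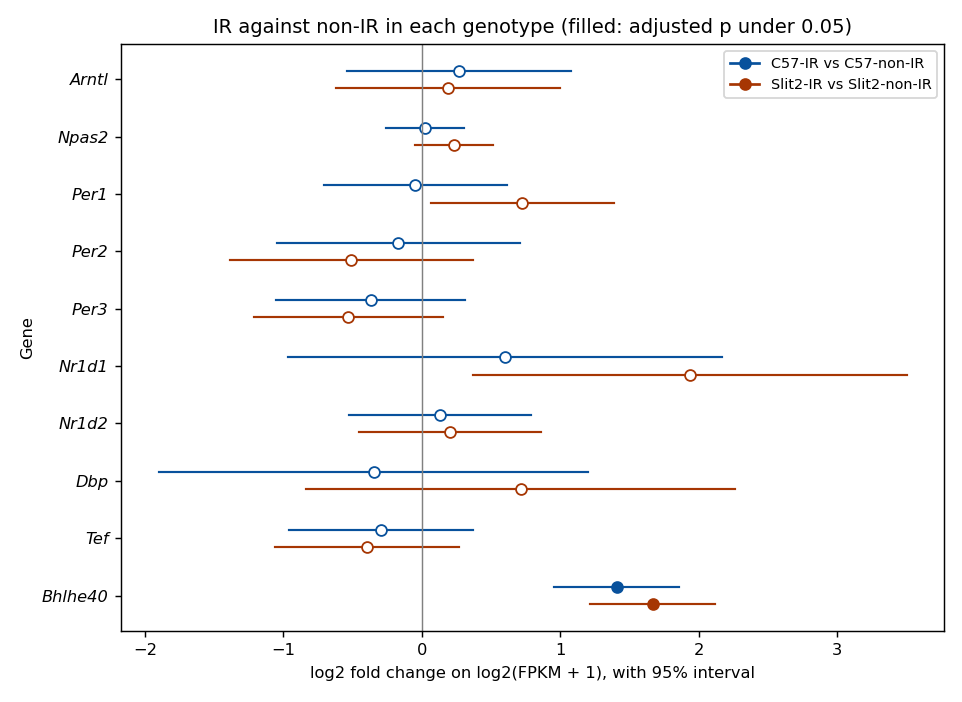
Difference between IR and non-IR hearts for each clock gene in C57 (blue) and Slit2 (brown) hearts, as log2 fold change on log2(FPKM + 1) with its 95% interval from the limma fit (n = 3 per group). Filled points have an adjusted p under 0.05. Both Bhlhe40 points are filled and lie at 1.41 and 1.67, and the intervals of Nr1d1 and Dbp are the widest drawn.

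The effect of the Slit2 transgene on these genes was compared without and with IR. No clock gene of 10 was called at an adjusted p under 0.05 by limma in either comparison or for the averaged Slit2 effect, where 0.0394%, 0.0459% and 0.131% of all genes were called. At an unadjusted p under 0.05 the count was 0 of 10 as well, against 3.19% of all genes in non-IR hearts, 3.16% in IR hearts and 4.13% for the averaged effect, and none of the 10 genes had groups that did not overlap (9.2% and 6.47% of all genes). The log2 differences ran from -0.62 (Nr1d1) to 0.18 (Arntl) without IR and from -0.44 (Per2) to 0.72 (Nr1d1) with IR. That order depends on the scale for low genes. Npas2, the relative of Clock, was 0.185 ± 0.0758 FPKM in C57-IR and 0.441 ± 0.353 FPKM in Slit2-IR hearts (mean ± SD, n = 3 each). Its log2 difference was 0.26 ± 0.13 SE with a pseudocount of 1 (unadjusted p = 0.0700, adjusted p = 0.9996), 0.77 with one of 0.1 and 1.05 by limma-voom on reads, and 0.066 without Slit2-IR replicate 3. The study's own test, with its unadjusted cutoff of 0.05, did list Npas2 among the genes raised in transgenic hearts after IR. The 95% interval of Bhlhe40 reached from -0.62 to 0.28 without IR and from -0.37 to 0.54 with IR, whereas that of Nr1d1 reached from -2.19 to 0.95 and from -0.85 to 2.28, so the bounds on Nr1d1 were much wider. The median log2 difference of the 10 genes was -0.06 without IR and 0.09 with IR, against 0.00 over all genes in both. The interaction of IR and Slit2 gave 0 clock genes at an adjusted p under 0.05 (0% of all genes) and 0 at an unadjusted one (1.86% of all genes). In all these Slit2 comparisons and the interaction, the count at an adjusted p was 0 under every alternative run, limma-voom included. For Dbp the interaction was 1.06 ± 0.998 SE (adjusted p = 0.9998).

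Spread within groups was described next, because clock RNAs vary with the hour of the day. The pooled within-group SD on the log2(FPKM + 1) scale was 1.02 for Nr1d1 and 1.01 for Dbp, above 99.6% of the 11192 tested genes with a mean of at least 1 FPKM, whose median SD was 0.16. It was 0.57 for Per2, 0.53 for Arntl, 0.44 for Per3, 0.42 for Tef, 0.42 for Per1 and 0.42 for Nr1d2, above 93.8% to 97.3% of those genes. Bhlhe40 had an SD of 0.28, above 82.8%, and Npas2 one of 0.18, above 56.9%. Npas2 and Arntl are compressed on this scale, and with a pseudocount of 0.1 their SDs were 0.51 and 1.18, above 93.0% and 99.3%. With that pseudocount Nr1d1 and Dbp stood above 99.2% and 99.1% of those genes, Per2 above 96.9% and Per3 above 95.7%. Per1, Tef and Nr1d2 then stood above 90.8%, 90.5% and 90.2%, and Bhlhe40 above 74.4%. Neither Npas2 nor Arntl belongs to the genes they are ranked against, since their means were 0.249 and 0.644 FPKM. With a pseudocount of 1 the SD of Npas2 ranged from 0.069 to 0.19 with single libraries left out.

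The ratio of Dbp to Arntl FPKM set 3 libraries apart. It was 3.64 in C57-IR replicate 3, 3.48 in Slit2-non-IR replicate 2 and 3.89 in Slit2-IR replicate 3, and between 30.2 (C57-IR replicate 2) and 161 (C57-IR replicate 1) in the other 9 libraries. These 3 libraries belong to 3 different groups and none is a C57-non-IR heart. They were recognised from these values, so their Arntl and Dbp levels are a description.

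**Figure D3:**
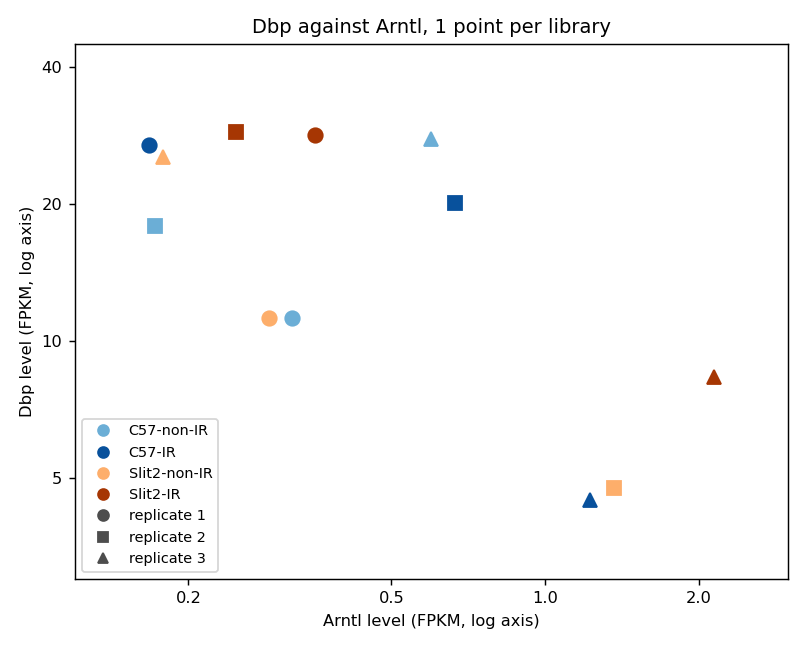
Dbp level against Arntl level in FPKM, both on log axes, 1 point per library, with colour for the group and marker shape for the replicate number. C57-IR replicate 3, Slit2-non-IR replicate 2 and Slit2-IR replicate 3 lie at the lower right with 1.22 to 2.14 FPKM of Arntl and 4.46 to 8.34 FPKM of Dbp, and the other 9 libraries lie above and to the left.

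The other 18 clock genes, 8 from the list above and the 10 further loop genes Clock, Cry1, Cry2, Rora, Rorb, Nfil3, Hlf, Bhlhe41, Ciart and Timeless, were then read in the same 3 libraries. Of the 18, 7 were the lowest of their group in all 3 libraries, which held for 5.13% of the 15240 genes tested, and 1 was the highest in all 3, which held for 5.2%. The 7 were Per3, Nr1d1, Tef, the period-loop repressor Cry2, the D-box activator Hlf, the E-box repressor Bhlhe41 and Ciart, which encodes an inhibitor of the Arntl and Clock pair. The 1 highest was Clock, the partner of Arntl, and a count of 1 of 18 is near the 5.2% over all genes tested. Hlf lay 0.44, 0.39 and 1.05 log2 units below its group means and stood at 3.27, 3.46 and 1.87 FPKM in C57-IR replicate 3, Slit2-non-IR replicate 2 and Slit2-IR replicate 3, where the other libraries of those groups had 4.13 to 8.46 FPKM. Clock lay 0.07, 0.22 and 0.28 above its group means. Per1, Per2, Bhlhe40, Npas2, Cry1, Rora, Rorb, Nfil3 and Timeless deviated in different directions among the 3 libraries, and Nr1d2 was below its group mean in all 3 without always being the lowest.

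**Figure D4:**
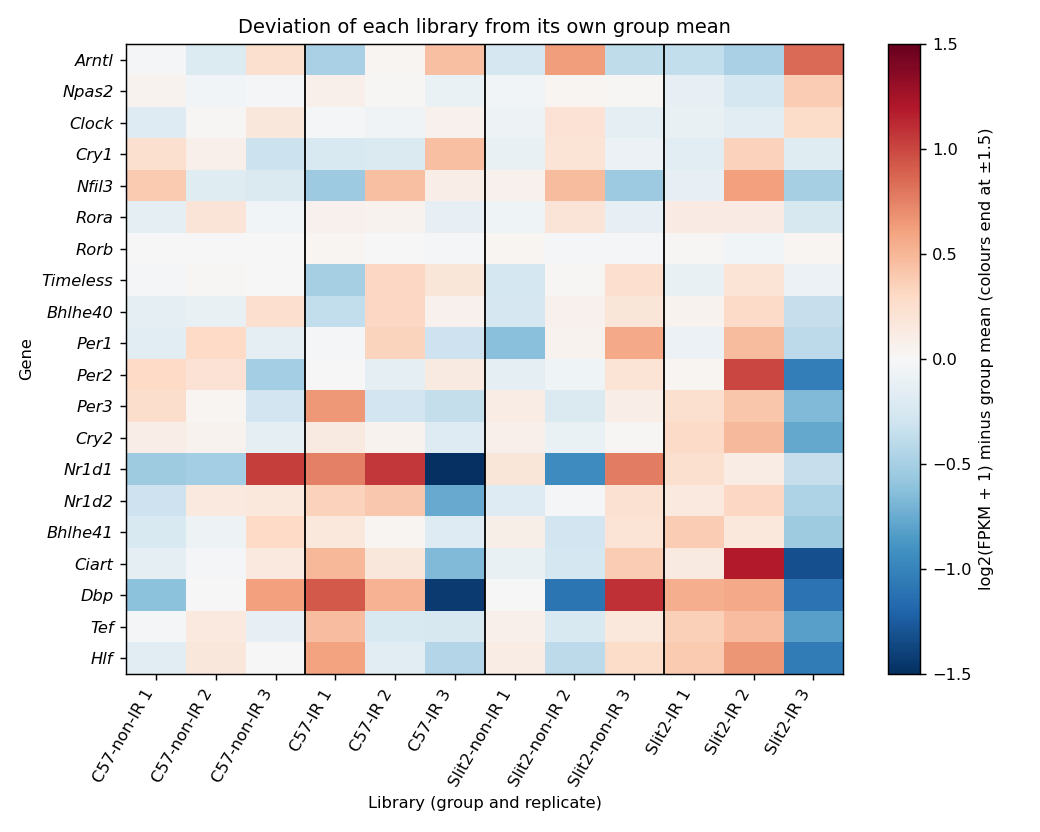
Deviation of each library from the mean of its own group on the log2(FPKM + 1) scale (colour, red above and blue below the mean) for the 10 genes and the 10 further loop genes (rows) in the 12 libraries (columns, groups parted by lines). C57-IR replicate 3, Slit2-non-IR replicate 2 and Slit2-IR replicate 3 are red for Arntl (0.45, 0.63 and 0.85) and blue for Dbp (-1.44, -1.10 and -1.11), and the blue extends over Per3, Cry2, Nr1d1, Bhlhe41, Ciart, Tef and Hlf.

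How far pairs of clock genes deviated together within groups was measured for 8 pairs by correlating group-centred log2(FPKM + 1) values over the 12 libraries, with a two-sided exact permutation test that relabels 1 gene within groups (1296 relabelings, smallest p 0.000772). The pairs had been picked with these data known, and neither the p-values nor their adjustment over the 8 pairs takes that choice into account. Arntl and Per3 moved oppositely (r = -0.88, rho = -0.86, exact permutation p = 0.00617 for both, adjusted over the 8 pairs p = 0.0247 for r and 0.0494 for rho). Dbp and Nr1d1 moved together (r = 0.88, exact permutation p = 0.00463, adjusted p = 0.0247, rho = 0.78, exact permutation p = 0.0185, adjusted p = 0.0741). Relabelling within groups treats libraries of the same replicate number as unrelated, although the deviations of Slit2-IR libraries from their group mean correlated with those of the same number in Slit2-non-IR and C57-IR hearts (0.14 to 0.36 over all tested genes). With the means of the replicate numbers removed as well, a block added after seeing the data and given with no p, r was -0.84 for Arntl and Per3 and 0.88 for Dbp and Nr1d1.

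Along Arntl and Dbp the libraries fall into 2 clusters, the 3 of low ratio and the other 9. The r of -0.80 and rho of -0.74 over all 12 therefore describe the gap between the clusters, and r was -0.84 with the block. Among the 9 libraries r was -0.01, but these were picked by the ratio of the same 2 genes, which takes away a negative relation by itself, so the relation within the clusters could not be tested. Among these 9, as a description, r was -0.86 for Arntl and Per3 and 0.75 for Dbp and Nr1d1.

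Leaving out the 2 libraries farthest from the median of the first gene of a pair gave r = -0.87 for Arntl and Per3, 0.86 for Dbp and Nr1d1 and -0.61 for Arntl and Dbp. The 144 relabelings then left are too few for a single pair to pass the threshold once adjusted over 8, so no call was read from them. Leaving out any 1 of the 9 libraries other than C57-non-IR ended the call of r for Arntl and Per3 (adjusted p from 0.0556 to 0.0741, exact permutation over 432 relabelings), and that for Dbp and Nr1d1 ended without C57-IR replicate 3 or any 1 of the 6 Slit2 libraries (adjusted p from 0.0556 to 0.0741). The other 5 pairs were not called. Arntl gave r = 0.58 and rho = 0.39 with Npas2 (exact permutation p = 0.271 and 0.374) and r = -0.50 and rho = -0.38 with Nr1d1 (exact permutation p = 0.106 and 0.255). Dbp gave r = 0.58 and rho = 0.51 with Per3 (exact permutation p = 0.148 and 0.181) and r = 0.54 and rho = 0.61 with Per1 (exact permutation p = 0.156 and 0.0988). Per1 and Per2 gave r = 0.56 and rho = 0.43 (exact permutation p = 0.0795 and 0.209). Over these pairs the adjusted p ran from 0.159 to 0.271 for r and from 0.198 to 0.374 for rho. The sign of r for Arntl and Npas2 turned without the 2 libraries farthest from the median of Arntl (-0.57). The 3 libraries of low ratio also reversed it when left out (-0.11), as they did for Arntl and Nr1d1 (0.62) and for Dbp and Per3 (-0.17).

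Ordered by the same group-centred correlation with Arntl over the 12 libraries, 7 of the 17 other clock genes that could be ranked lay within 100 places of an end of the 11192 genes and 10 lay between (r from -0.76 to 0.16). As a description, Hlf was the lowest (r = -0.94), Tef the second lowest (r = -0.93), Per3 had rank 13 from the bottom (r = -0.88), Cry2 rank 29 (r = -0.85), Ciart rank 48 (r = -0.83) and Dbp rank 86 (r = -0.80), while Clock had rank 40 from the top (r = 0.85). Those between included Nr1d1 (r = -0.50), Per1 (r = -0.43), Bhlhe40 (r = -0.087), Nfil3 (r = 0.050) and Cry1 (r = 0.10). Among the genes outside the 10 that lay nearest to Arntl were AC159818.1, Dtx4, BC037034 and Slc39a13 (r from 0.92 to 0.96), and after Hlf the most opposite were 9130011E15Rik, Sipa1l1, Wdr41 and Palld (r from -0.92 to -0.91). In the order by Dbp, 5 of 16 clock genes lay within 100 places of the top, 0 within 100 of the bottom and 11 between (r from -0.55 to 0.69). Nr1d1 had rank 10 from the top (r = 0.88), Nr1d2 rank 12 (r = 0.86), Bhlhe41 rank 14 (r = 0.86), Hlf rank 44 (r = 0.80) and Ciart rank 57 (r = 0.79). Among those between were Per2 (r = 0.28), Bhlhe40 (r = 0.29), Nfil3 (r = -0.27), Clock (r = -0.54) and Cry1 (r = -0.55). Pdcd6ip, Slc23a2, Dtd2, Slc36a2 and Nom1 lay nearest to Dbp (r from 0.90 to 0.94), and Znhit1, Zfp944, Mocs2, Setdb1 and Luc7l3 farthest from it (r from -0.95 to -0.92). Without removing group means, Per1 was most like Igfbp3 (r = 0.91), Fam131a, Hdac1, Ifit1bl1 and Gm19196 and most unlike Ado (r = -0.92), Dpf2, 2810414N06Rik, Pfkfb2 and Cep63, with Nr1d2 at rank 203 from the top (r = 0.66). All libraries of a group share its treatment, and the 3 libraries of low ratio weigh on the orders by Arntl and Dbp.

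The further genes of the loop, its modifiers, its outputs and genes that answer to signals able to reset it were counted for the averaged IR effect, for which 3.49% of all genes were called, and 15.9% when p was not adjusted. With the replicate block 5.07% of all genes were called at an adjusted p. Of the 10 further loop genes, 2 rose and 0 fell at an adjusted p under 0.05, with a median log2 difference over the 10 of 0.10 against 0.00 over all genes. Nfil3, the D-box repressor, was 8.43, 5.33 and 5.16 FPKM in C57-non-IR and 14.0, 29.1 and 22.5 FPKM in C57-IR hearts. In Slit2 hearts it was 8.64, 11.8 and 5.34 FPKM without IR and 18.6, 31.9 and 14.1 FPKM with IR. All its IR libraries lay above all its non-IR libraries, with an averaged log2 difference of 1.41 ± 0.24 SE (adjusted p = 0.00953). Timeless, a replication fork protein related to a fly clock gene, lay between 2.08 and 3.41 FPKM without IR and between 3.98 and 7.74 FPKM with IR, a difference of 0.83 ± 0.14 SE (adjusted p = 0.00842), and its call was lost when the 3 libraries of low ratio were left out together (difference 0.815, adjusted p = 0.0767, with fewer libraries). At an unadjusted p, Bhlhe41 was higher (0.37 ± 0.16 SE, adjusted p = 0.293) and Cry1, the partner repressor of the period proteins, lower (-0.36 ± 0.15 SE, adjusted p = 0.275).

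Of the 10 modifiers of clock proteins (kinases, ubiquitin ligase subunits and a deacetylase), 0 were called at an adjusted p by limma (0 also with limma-voom) and the median log2 difference was 0.09. At an unadjusted p 2 were higher, among them the deacetylase Sirt1 (0.54 ± 0.16 SE, adjusted p = 0.0937), which was called with the replicate block (adjusted p = 0.0111). Of 10 genes known as clock-linked outputs in the heart, 1 rose at an adjusted p and 2 were lower at an unadjusted p, with a median of -0.14. The gene that rose was Coq10b, a mitochondrial coenzyme Q binding protein, at 7.002 to 8.72 FPKM without IR and 9.06 to 17.4 FPKM with IR (0.71 ± 0.15 SE, adjusted p = 0.0223). Leaving out any 1 of 6 libraries ended that call, namely C57-non-IR replicates 1 and 2, C57-IR replicate 2, Slit2-non-IR replicates 2 and 3 and Slit2-IR replicate 1 (adjusted p from 0.0555 to 0.0606), as did no filter beyond 1 read (adjusted p = 0.0611). The 2 lower genes were the Krüppel-like factor Klf15 (-0.59 ± 0.19 SE, adjusted p = 0.133) and Pik3r1, a regulatory subunit of phosphoinositide 3-kinase (-0.60 ± 0.17 SE, adjusted p = 0.0791). Pik3r1 was called without Slit2-IR replicate 2 (-0.73, adjusted p = 0.0224).

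Of the 8 glucocorticoid-responsive genes, 0 were called at an adjusted p (0 also with limma-voom), and at an unadjusted p 3 were higher and 1 lower, with a median of -0.21. Fkbp5, a cochaperone of the glucocorticoid receptor, had the lower value (-0.87 ± 0.32 SE, adjusted p = 0.195), and the cell cycle inhibitor Cdkn1a was the furthest above 0 (1.31 ± 0.40 SE, adjusted p = 0.115). With the replicate block 3 of the 8 were called, Fkbp5 (adjusted p = 0.0363), Cdkn1a (0.0106) and the EGF receptor inhibitor Errfi1 (0.94, adjusted p = 0.0130). That fit called 5.07% of all genes, against 3.49% without the block. With single libraries left out Fkbp5 was called without Slit2-IR replicate 2, Cdkn1a without C57-IR replicate 1 and Errfi1 without C57-IR replicate 1 or Slit2-non-IR replicate 2. Of the 5 genes that answer to cAMP and calcium, 2 rose at an adjusted p and 0 fell, and 4 were higher at an unadjusted p, with a median of 0.70. The 2 were Crem, a cAMP-responsive repressor (0.70 ± 0.11 SE, adjusted p = 0.00687, with a difference of 0.702 and adjusted p = 0.0728 without the 3 libraries of low ratio), and the nuclear receptor Nr4a1 (1.54 ± 0.26 SE, adjusted p = 0.00751). With the replicate block, where 5.07% of all genes were called, the count was 4, with the immediate early gene Fos (0.99, adjusted p = 0.0223) and the kinase Sik1 (0.63, adjusted p = 0.0116) added. Of the 5 temperature-responsive genes (median 1.73), 3 rose, the chaperones Hspa1a (5.94 ± 0.23 SE, adjusted p = 2.19e-07), Hspa1b (6.90 ± 0.27 SE, adjusted p = 2.19e-07) and Hsph1 (1.73 ± 0.15 SE, adjusted p = 0.000322). Hspa1a and Hspa1b are near-identical copies whose reads cannot be safely divided, and the cold-induced RNA-binding protein Rbm3 reached only an unadjusted p under 0.05 (0.36 ± 0.12 SE, adjusted p = 0.129). Rbm3 was called with the replicate block (adjusted p = 0.0404), without C57-IR replicate 3 (0.0452) and without the 3 libraries of low ratio (0.0243).

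Markers of other tissue and cell types are given beside these spreads as sums over whole lists. In the 3 libraries of low Dbp to Arntl ratio the 10 ventricular cardiomyocyte markers summed to 16870 to 19810 FPKM, against 17620 to 24310 FPKM in the other 9. None of the 3 is a replicate 1. Replicate 1 had the highest ventricular sum in each of the 4 groups (21660 to 24310 FPKM). The libraries that are neither among the 3 nor a replicate 1 lay at 17620 to 19950 FPKM. The 6 atrial markers summed to 52.9 to 89.8 FPKM in the 3 libraries and 26.6 to 1695 FPKM in the 9, with the highest value in Slit2-IR replicate 1. Lung markers (6 genes) summed to 0.257 to 12.4 FPKM against 0.121 to 9.82 FPKM, adipose markers (6 genes) to 0.772 to 17.3 FPKM against 0 to 14.2 FPKM, and red blood cell markers (5 genes) to 3.24 to 49.0 FPKM against 1.48 to 16.2 FPKM. Skeletal muscle markers (6 genes) summed to 1.40 to 1.83 FPKM against 1.01 to 2.15 FPKM, with Myh4 at 0 in all libraries, and neutrophil markers (4 genes) to 0 to 0.321 FPKM against 0 to 1.03 FPKM, with Ly6g at 0 in all. Endothelial markers (5 genes) summed to 149 to 198 FPKM against 126 to 193 FPKM, fibroblast markers (5 genes) to 167 to 194 FPKM against 98.5 to 182 FPKM and macrophage markers (5 genes) to 264 to 345 FPKM against 161 to 353 FPKM. Replicate 1 had the lowest fibroblast sum (98.5 to 160.1 FPKM) and the lowest macrophage sum (161.2 to 226.9 FPKM) of each group. Libraries neither among the 3 nor a replicate 1 gave 150.8 to 182 FPKM for fibroblast and 236.6 to 353 FPKM for macrophage markers. Between IR and non-IR hearts 2 of the 10 lists had groups that did not overlap in C57 hearts and 0 in Slit2 hearts. Among single genes tested the groups did not overlap for 13.8% in C57 and 16.9% in Slit2 hearts. No such share was computed for sums over lists. Atrial markers summed to 26.6 to 88.05 FPKM without and 89.8 to 240.4 FPKM with IR in C57 hearts, and red blood cell markers to 8.35 to 16.2 FPKM without and 1.48 to 6.79 FPKM with IR, while Bhlhe40 rose. In Slit2 hearts, where Bhlhe40 rose as well, the atrial sums were 41.1 to 113.6 FPKM without and 70.8 to 1695 FPKM with IR and the red blood cell sums 4.53 to 49.0 FPKM without and 1.85 to 12.9 FPKM with IR. Their part in the clock gene levels was not tested, and in whole hearts fewer cells of a type and less RNA per cell cannot be told apart. Nor was the hour of collection tested, which the labels do not give.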

How the data were processed

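The authors deposited FPKM values per gene and library, made from paired-end reads of total RNA (NEBNext Ultra kit, HiSeq). HISAT2 and mm10 are named in the submitters' processing notes. The counting tool, annotation release and use of strand are not given in the sources used here. Gene lengths, coordinates and gene types stand in the same deposited files, in bases of gene length for the former. FPKM times gene length rose in whole steps (100.0% of values within 0.1), in proportion to median-of-ratios size factors, so the 4 files share a scale and reads were recovered (16601154 to 24841291 per library). There were 0 unused columns. Same-group libraries differed by a chi-square per gene of 8.66 to 54.3, above sampling noise.

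Log2(FPKM + 1) was tested with limma 3.58.1 (R 4.3.3, variance trend, Benjamini-Hochberg over 15240 genes that reached 10 reads, scaled to the median library, in 3 libraries and 15 in all), 4 groups in one fit. Changes of low genes come out too small on this scale. Adjusted p under 0.05 was the threshold, and the study's own cutoff was an unadjusted p of 0.05. The members, lists, pairs and tests were chosen with earlier results of these data known. Named are the 10 genes, genes of the lists, and for Arntl, Dbp and Per1 the 5 genes of highest and 5 of lowest correlation among those of mean FPKM of at least 1. Some genes that this rule would name are not reported here. The SDs, correlations and figures used Python 3.11.15, pandas 2.3.3, scipy 1.17.1 and matplotlib 3.10.9. The fit was tested on simulated data. Alternatives were a pseudocount of 0.1, no filter, a stricter filter, only the libraries compared, the replicate block, TMM-like scaling, robust prior variance, limma-voom on recovered reads and each library left out. Leaving out the 3 libraries of low Dbp to Arntl ratio (under 10) and the block for r were added after seeing the data. Deviations from group means of same-numbered libraries correlated over 0.1 in all 3 pairs for Slit2-IR against Slit2-non-IR (0.14 to 0.29) and against C57-IR (0.15 to 0.36) hearts. For replicate 1 they correlated at 0.28 to 0.32 in all 4 comparisons. Replicates 2 and 3 gave 0.04 to 0.13 in the comparisons with C57-non-IR hearts. The labels name no separate litters or days, so p-values measure the spread between these libraries.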

Additional observations from a re-analysis of the deposited data

How the results depend on the processing

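The averaged IR effect on Bhlhe40 kept its direction and its call under every alternative run. The number of clock genes called at an adjusted p under 0.05 in C57-IR against C57-non-IR hearts went from 1 to 0 with no filter beyond 1 read, with only the 6 libraries compared and without the 3 libraries of low Dbp to Arntl ratio, and ranged from 0 to 1 with single libraries left out. In Slit2 hearts it ranged from 0 to 1, and for the averaged IR effect from 1 to 2, the second being Nr1d1 without C57-IR replicate 3. Leaving out a library leaves 2 in its group, whose spread is then shared with the other groups. With the replicate block the counts of clock genes stayed at 1, 1 and 1 in these comparisons. They stayed at 0 in those of Slit2 and the interaction. Among all genes tested, the calls went from 70 to 174 in C57 hearts (1.14%) and from 80 to 202 in Slit2 hearts (1.325%). For the averaged IR effect they went from 532 to 773 (5.07%). The labels do not say that libraries of the same number belong together. The block was also run for the averaged IR effect on the other lists, where it added Sirt1, Fkbp5, Cdkn1a, Errfi1, Fos, Sik1 and Rbm3 to the genes called and ended no call. For the clock genes it added Per3 at an unadjusted p only. For r it gave 0.75 for Dbp and Per1, and values within the range over single libraries left out for the other 7 pairs.

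Mouse Slit2 between genotypes reversed to -0.026 with a pseudocount of 0.1 and to -0.11 by limma-voom, and ranged from -0.087 to 0.099 with single libraries left out. Per1 in C57 hearts ranged from -0.21 to 0.11 with single libraries left out and reversed to 0.11 without the 3 libraries. The averaged IR effect on Dbp ranged from -0.092 to 0.54. With single libraries left out r ranged from -0.92 to -0.78 for Arntl and Per3, from 0.81 to 0.93 for Dbp and Nr1d1, from -0.90 to -0.74 for Arntl and Dbp and from -0.26 to 0.75 for Arntl and Npas2. With a pseudocount of 0.1 Arntl and Dbp gave r = -0.79, and the SDs of Arntl and Npas2 moved to 1.18 and 0.51. Without the 2 libraries farthest from the median of the first gene r was -0.57 for Arntl and Npas2, -0.61 for Arntl and Dbp, -0.87 for Arntl and Per3 and 0.86 for Dbp and Nr1d1. Without the 3 libraries of low ratio these were -0.11, -0.011, -0.86 and 0.75, and r was 0.62 for Arntl and Nr1d1 and -0.17 for Dbp and Per3. Fewer libraries allow fewer relabelings, and other causes were not tested. Depth limits Arntl and Npas2, with as few as 22 and 11 reads in a library.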
